A study of Triticum aestivum with 6 samples.

Results

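The genes described here are those of wheat (Triticum aestivum) that move auxin between cells, attach it to amino acids, or belong to the SAUR family of short auxin-responsive genes. They were picked by a rule on protein names, with earlier results of these data known. A gene was included when the first protein name paired with it in the deposited table contained "auxin efflux carrier", "auxin transporter-like", "indole-3-acetic acid-amido synthetase" or "auxin-responsive protein SAUR". This gave 182 of the 83219 genes in the table, namely 35 efflux carriers, 11 influx carriers, 27 amido synthetases of the GH3 family and 109 SAUR genes. The names are those of the UniProt descriptions in the table, and how they were paired with the wheat genes is not recorded there, so a name such as component 2 is a label and not a checked identity. Genes of the same name on the A, B and D chromosomes of a group are called copies, without a check that they correspond.

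RNA was sequenced from roots of seedlings of the line JW1, which the labels call wild-type, in 2 groups of 3 samples. Seedlings were germinated for 3 days, had the endosperm removed, grew for 3 days in medium holding 2 mM nitrate, and were starved of nitrogen for 2 days. For the last 3 h, all 6 samples received 5 µM abscisic acid (ABA), a stress hormone that slows root growth at high doses. The group 2N+ABA received it with 2 mM potassium nitrate, and 0N+ABA with 2 mM potassium chloride in place of nitrate, so the comparison asks what a resupply of nitrate does when ABA is present in both groups. Nitrate and chloride differ together between the groups and cannot be told apart, and no sample without ABA was analysed here. Nothing in the labels states that replicates were grown separately, so every p-value rests on the spread among these 6 samples, part of which may be technical.

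Auxin (indole-3-acetic acid, IAA) is made in young tissue and is carried from cell to cell, which sets up the auxin maximum at the root tip and the bending of roots. AUX1/LAX proteins bring it into a cell, and PIN proteins, the efflux carriers, let it out on one side and so give the flow its direction. Many GH3 enzymes join IAA to amino acids, which mostly takes it out of action and buffers its level. SAUR genes are transcribed soon after auxin arrives, and in Arabidopsis several SAUR proteins block phosphatases that hold back the proton pump of the plasma membrane, so that walls loosen and cells lengthen. In Arabidopsis the nitrate sensor NRT1.1 also carries auxin, one of several known links between nitrate and auxin in roots.

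The libraries held between 16907317 and 17735564 estimated counts. Of 27 tested genes for NRT2 nitrate transporters and nitrate reductase, 22 were higher in 2N+ABA by edgeR's quasi-likelihood test (adjusted p under 0.05) and 0 were lower (with p unadjusted also 0, and 0 by DESeq2 or limma-voom), in the direction that the labels of the groups name. One further label names leaf tissue, and 113 genes for chlorophyll-binding proteins, Rubisco small subunits and photosystem parts, 21 of them without any count, summed to between 134 and 287 TPM (a level scaled to gene length and to a fixed total per library). One library stood apart. On the first principal component 0N+ABA replicate 2 lay at -1.28, whereas its group's replicates 1 and 3 had -63.8 and -74.1, and 2N+ABA ranged from 38.8 to 59.9. Its summed level of 7 Casparian strip membrane protein genes was 198 TPM, while replicates 1 and 3 had 117 and 118 TPM and the 2N+ABA libraries 158 to 191 TPM. The part of this in the results was not tested. Without that library, edgeR called 5 of 6 tested Casparian strip genes higher, and 0 with it (0 at an unadjusted p under 0.05, and 0 by DESeq2 and limma-voom). Of all tested genes, edgeR called 5.19% higher without that library and 1.67% with it.

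Most of these genes were silent or nearly so in these roots. Of the 182, 23 had no count in any library and another 95 had too few reads for the test, which left 64 tested genes, 17 efflux carriers, 9 influx carriers, 17 GH3 genes and 21 SAUR genes. Only 15 reached a mean of 10 TPM over the 6 libraries, 5 of them efflux carriers, 3 influx carriers, 3 GH3 genes and 4 SAUR genes, and 65 reached 1 TPM. In bulk RNA, fewer cells of a type and less RNA per cell cannot be told apart.

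**Figure D1:**
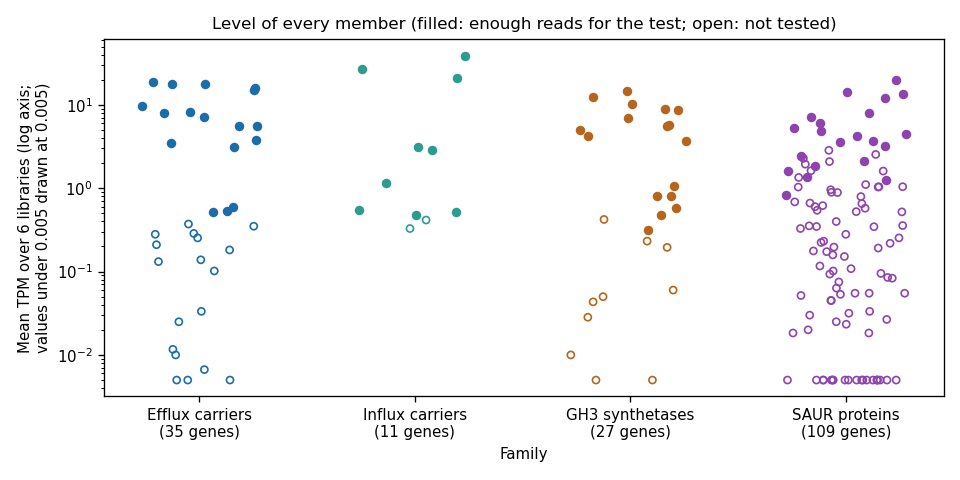
Mean TPM over the 6 libraries (log axis) of each of the 182 genes by family, with filled points for the 64 genes that had enough reads for the test and open points for those that did not. Of the 109 SAUR genes 88 were not tested, with a median of 0.112 TPM, while the highest level of all belonged to an influx carrier at 38.9 TPM.

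With nitrate, 1 of the 64 tested genes rose and 0 fell by edgeR's quasi-likelihood test with p adjusted over all 53862 tested genes. Across all tested genes, 1.67% were higher and 0.579% lower by the same rule, so a single call among these genes is near the background share. DESeq2 called 1 rise and 1 fall, where 2.65% and 1.28% of all genes were called higher and lower. Limma-voom called 1 rise and 0 falls (1.57% and 0.486% of all genes), limma on log2(TPM + 0.1) called neither (1.1% and 0.468%), and edgeR with the replicate number as a block called 1 rise and 0 falls (1.09% and 0.251%). With an unadjusted p under 0.05, 10 members were higher and 11 lower, where 8.62% and 7.77% of all tested genes were. These 21 members were 32.8% of those tested, against 16.4% of all tested genes. The groups did not overlap in 12 genes that were higher and 9 that were lower in 2N+ABA, again 32.8%, against 22.1% of all tested genes. The median log2 fold change was -0.06, against -0.02 over all tested genes.

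The families leaned different ways. The median log2 fold change was -0.23 for the efflux carriers (14 of 17 below 0), -0.14 for the influx carriers (6 of 9 below 0), -0.09 for the GH3 genes (9 of 17 below 0) and 0.35 for the SAUR genes (16 of 21 above 0), while 52.3% of all tested genes were below 0. The efflux carriers' median ran from -0.27 to -0.22 with 1 library left out, and was -0.29 by limma on log2(TPM + 0.1) and -0.19 by DESeq2. The other medians depended more on the processing. Without 0N+ABA replicate 3 those of GH3 and SAUR genes were 0.08 and 0.73, and the SAUR median was 0.06 with no filter on low counts and 0.06 by DESeq2, both of which take in SAUR genes with fewer reads. With a minimum mean of 1 CPM the influx carriers' median was -0.30. The influx carriers' median was -0.45 without 0N+ABA replicate 1 and close to 0 without 2N+ABA replicate 2 (-0.0023).

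**Figure D2:**
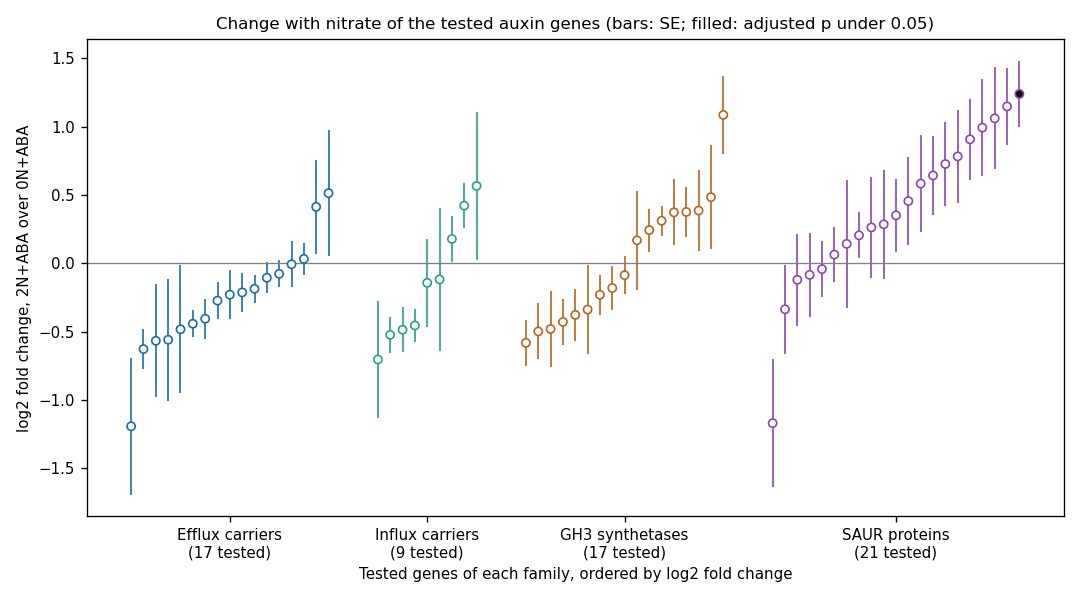
Log2 fold change (2N+ABA over 0N+ABA) of the 64 tested genes by family, ordered within each family, with bars of 1 SE from edgeR. The filled point is the only gene past an adjusted p of 0.05, a SAUR50 gene at 1.24, and the efflux carriers lie mostly below 0 and the SAUR genes mostly above it.

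Leaving out 0N+ABA replicate 2 added 7 falls to the 1 rise, and these were 2 efflux carriers, 3 influx carriers and 2 GH3 genes. In that comparison 3.19% of all tested genes were lower and 5.19% higher, and the whole table gave 4607 calls in place of 1210. The edgeR calls of these 7 falls thus depended on 1 library, while the log2 fold changes of the 7 genes were below 0 with and without it. When 0N+ABA replicate 1, 0N+ABA replicate 3 or one of 2N+ABA replicates 1, 2 and 3 was left out, edgeR called 0 members lower, and 0.175%, 0.155%, 0.0581%, 0.222% and 0.111% of all genes.

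Summed over each family, the level per length separated the groups for both kinds of carriers and for SAUR genes. Efflux carriers summed to 173, 152 and 161 TPM in 0N+ABA replicates 1, 2 and 3 and to 122, 134 and 123 TPM in 2N+ABA. Influx carriers summed to 105, 99.6 and 130 TPM in 0N+ABA and to 82.5, 77.6 and 81.3 TPM in 2N+ABA. All 3 nitrate libraries were below all 3 without nitrate for both, and 0N+ABA replicate 2, the library that stood apart, was the nearest of its group to the nitrate libraries. SAUR genes summed to 131, 126 and 152 TPM without nitrate and to 187, 174 and 173 TPM with it, so here every nitrate library was higher. GH3 genes summed to 93.3, 82.9 and 118 TPM and to 85.4, 82.0 and 88.5 TPM, and their groups overlapped. The ratio of the group means, 2N+ABA over 0N+ABA, was 0.780 for efflux carriers, 0.721 for influx carriers, 0.870 for GH3 genes and 1.31 for SAUR genes. From CPM (counts scaled to a fixed library total after TMM) in place of TPM the ratios were 0.819, 0.752, 0.906 and 1.27. These sums are descriptions without a test.

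**Figure D3:**
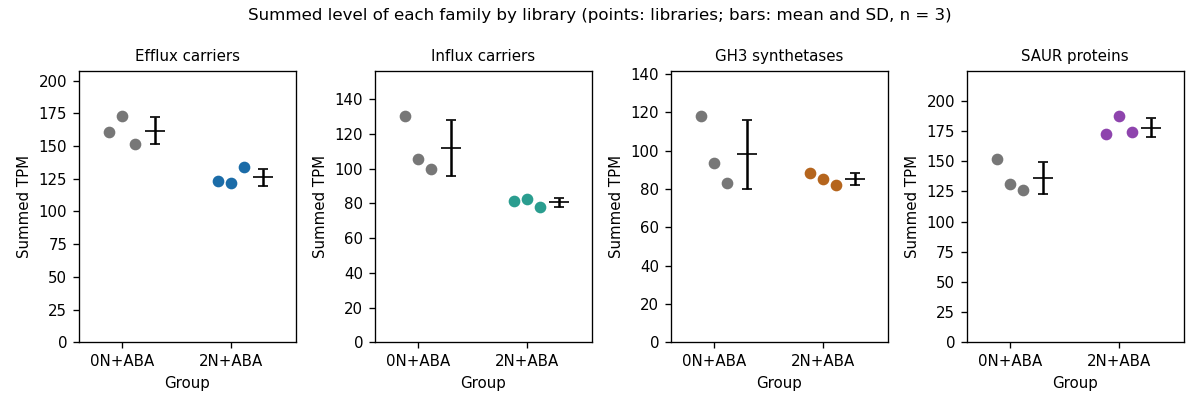
Summed TPM of all members of each family in each library, with 0N+ABA on the left and 2N+ABA on the right of each panel (points are libraries, bars the mean and SD, n = 3). The means were 162 ± 10.4 and 126 ± 6.49 for efflux carriers, 112 ± 16.2 and 80.5 ± 2.56 for influx carriers and 136 ± 13.5 and 178 ± 8.05 for SAUR genes, and the GH3 points overlap.

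The summed levels of some other root transcripts also separated the groups. Among markers of dividing cells (B-type cyclins and histone H4), 124 of 131 tested genes were below 0, 6 of all 156 had no count, and the list summed to between 10692 and 13966 TPM in 0N+ABA and between 9625 and 10316 TPM in 2N+ABA. None of these passed the test by edgeR, where 1.67% of all tested genes were higher and 0.579% lower, and DESeq2 and limma-voom called 0. With p unadjusted at under 0.05, 28 were lower and 0 higher, where 7.77% and 8.62% of all tested genes were. Without 0N+ABA replicate 2, edgeR called 1 lower (3.19% of all tested genes) and 0 higher (5.19%). Of 10 tested root hair genes, matched on protein names, 8 were above 0 and 1 rose by edgeR (1.67% of all tested genes). DESeq2 called 5 higher (2.65%) and edgeR without 0N+ABA replicate 2 called 5 (5.19%). At an unadjusted p under 0.05, 6 were higher (8.62%). The list of 13, all with counts, summed to 83.3 to 86.8 TPM without nitrate and 94.1 to 103 TPM with it. The part of these in the carriers' or SAUR values was not tested.

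Among the efflux carriers, the genes for component 2 gave the smallest p-values. In Arabidopsis PIN2 acts in the outer root layers, carries auxin from the tip back up the root and is needed for roots to bend with gravity. The 7D copy (TraesCS7D02G478800) had 19.5, 18.5 and 19.04 CPM in 0N+ABA and 13.3, 13.7 and 14.9 CPM in 2N+ABA (log2 fold change -0.44 with an SE of 0.0979, adjusted p = 0.0616). The 7B copy (TraesCS7B02G398100) had 17.04, 17.001 and 16.2 CPM and 8.47, 12.3 and 11.8 CPM (log2 fold change -0.63 with an SE of 0.147, adjusted p = 0.0729). In both, the 0N+ABA libraries lay close together, the one that stood apart included, and well above every nitrate library. DESeq2 called the 7B copy (adjusted p = 0.0375), and without 0N+ABA replicate 2 edgeR called the 7D copy (adjusted p = 0.0380) and placed the 7B copy just outside (adjusted p = 0.0506). The 7A copy (TraesCS7A02G492400) had 12.3, 10.1 and 13.3 CPM and 9.84, 10.7 and 9.02 CPM, with overlapping groups (log2 fold change -0.27 with an SE of 0.137, adjusted p = 0.375). Summed over the 3 copies, component 2 stood at 48.8, 45.6 and 48.5 CPM without nitrate and 31.6, 36.7 and 35.7 CPM with it. The remaining gene of that name, on 4D (TraesCS4D02G125300), was hardly expressed, at 0.253 TPM.

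Component 9 varied widely between libraries of the same group. PIN9 is known from rice and other grasses, and Arabidopsis has no gene of that name. Its 3A copy (TraesCS3A02G331300) had 35.6, 12.5 and 33.6 CPM in 0N+ABA and 14.9, 30.1 and 10.7 CPM in 2N+ABA. The 3B copy (TraesCS3B02G361500) had 15.7, 5.38 and 15.4 CPM and 3.89, 9.39 and 2.76 CPM, and the 3D copy (TraesCS3D02G324800) 21.1, 9.10 and 18.5 CPM and 9.67, 17.6 and 5.69 CPM. The copies moved together, low in 0N+ABA replicate 2 and high in 2N+ABA replicate 2, and the groups overlapped in each. None passed the test (log2 fold changes -0.56, -1.19 and -0.57, adjusted p = 0.601, 0.285 and 0.558). Without 0N+ABA replicate 2 the 3B copy passed (log2 fold change -1.55 with an SE of 0.377, adjusted p = 0.0393). Among further efflux carriers, names of the component 5 kind, which in Arabidopsis marks a short PIN of the endoplasmic reticulum, took 14 genes, of which the 9 for 5b summed to 7.27 to 8.81 TPM in every library. The 3 genes for component 3a summed to at most 0.240 TPM, and the gene for component 8 had no count.

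The influx carriers were dominated by 1 set of copies. Auxin transporter-like protein 1 on 3A, 3B and 3D (TraesCS3A02G369200, TraesCS3B02G401000 and TraesCS3D02G362100) had mean levels of 38.9, 26.5 and 21.2 TPM, which together were 90.2% of the summed influx carrier level. AUX1 of Arabidopsis, in the same family, loads auxin into root cap, epidermal and vascular cells. The 3A copy had 52.4, 53.6 and 65.8 CPM in 0N+ABA and 40.4, 41.5 and 43.4 CPM in 2N+ABA (log2 fold change -0.45 with an SE of 0.118, adjusted p = 0.0964). The 3B copy had 36.4, 29.8 and 46.3 CPM and 27.3, 28.8 and 24.2 CPM (log2 fold change -0.49 with an SE of 0.164, adjusted p = 0.185). The 3D copy had 28.9, 26.6 and 35.6 CPM and 22.3, 21.3 and 19.8 CPM (log2 fold change -0.52 with an SE of 0.130, adjusted p = 0.0847). In each copy every nitrate library was below every library without nitrate, and 0N+ABA replicate 3 was the highest of all. None passed with all 6 libraries. All 3 passed without 0N+ABA replicate 2, with log2 fold changes of -0.49, -0.62 and -0.61 (adjusted p = 0.0396, 0.0239 and 0.0193), and none did when another library was left out instead.

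The 7 genes for auxin transporter-like protein 2, on chromosomes 1 and 4, were at most 3.13 TPM each. The 1D gene (TraesCS1D02G079900) had the smallest p of them, with 3.33, 3.66 and 3.12 CPM in 0N+ABA and 4.40, 3.96 and 5.18 CPM in 2N+ABA. Its groups did not overlap and its direction was opposite to that of the protein 1 genes, but it did not pass (log2 fold change 0.42 with an SE of 0.164, adjusted p = 0.249). Of the 9 tested influx carriers, 0 passed in either direction by edgeR, DESeq2 and limma-voom. At an unadjusted p under 0.05, 1 was higher and 3 were lower, 44.4% of those tested against 16.4% of all tested genes.

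No GH3 gene passed the test with all libraries by edgeR, DESeq2 or limma-voom. At an unadjusted p under 0.05, 2 were higher and 3 lower, 29.4% of those tested against 16.4% of all tested genes. The highest levels belonged to TraesCS3B02G335300, matched to GH3.2, at 14.8 TPM, TraesCS2D02G191800 at 12.6 TPM and TraesCS2B02G600800 at 10.3 TPM, both matched to GH3.8. In rice GH3.8 and GH3.2 join IAA to amino acids. TraesCS2D02G191800 had 31.8, 31.8 and 47.3 CPM in 0N+ABA and 30.7, 33.1 and 34.1 CPM in 2N+ABA, with overlapping groups (log2 fold change -0.18 with an SE of 0.163). TraesCS2B02G600800 had 15.1, 10.9 and 16.98 CPM and 10.4, 12.3 and 7.83 CPM (log2 fold change -0.50 with an SE of 0.205, adjusted p = 0.277). The 3 genes for GH3.11 were nearly silent, at 0.220 to 0.320 TPM in sum.

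Copies matched to the same GH3 name did not all lean the same way. For GH3.2, the 3B copy (TraesCS3B02G335300) had 32.1, 33.3 and 49.4 CPM in 0N+ABA and 24.8, 27.0 and 24.9 CPM in 2N+ABA (log2 fold change -0.58 with an SE of 0.169, adjusted p = 0.131). The 3D copy (TraesCS3D02G300600) had 15.7, 18.03 and 18.2 CPM and 21.9, 22.9 and 19.7 CPM (log2 fold change 0.31 with an SE of 0.110, adjusted p = 0.204). The groups did not overlap in either, in opposite directions, while the 3A copy (TraesCS3A02G301200) had overlapping groups (log2 fold change -0.23 with an SE of 0.146). With 0N+ABA replicate 2 left out, the 3B copy passed (adjusted p = 0.0422) while the 3D copy had an adjusted p of 0.123. The whole set summed to 59.5, 65.9 and 82.1 CPM without nitrate and 56.6, 61.5 and 57.8 CPM with it, with overlap. For GH3.4 all 3 copies were above 0, between 0.37 and 1.09, at low levels, led by the 1D copy (TraesCS1D02G320000), which had 0.918, 1.26 and 1.297 CPM and 1.66, 2.87 and 2.87 CPM (SE 0.285, adjusted p = 0.0996). The GH3.12 gene on 3A (TraesCS3A02G145300) had 14.2, 9.67 and 15.2 CPM and 9.44, 9.39 and 10.2 CPM, so 0N+ABA replicate 2 lay among the nitrate libraries. It did not pass with that library (adjusted p = 0.261), and passed without it (log2 fold change -0.60 with an SE of 0.116, adjusted p = 0.0167).

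The only member that rose was a SAUR gene. TraesCS7B02G318200, on chromosome 7B and matched to SAUR50, had 4.59, 3.15 and 2.65 CPM in 0N+ABA and 8.47, 9.88 and 6.26 CPM in 2N+ABA. Every nitrate library was above every library without nitrate, and the gene rose 1.24 on the log2 scale (SE 0.241, 2.36-fold, adjusted p = 0.0401). SAUR50 in Arabidopsis is a growth-promoting member of the family. The call held without 0N+ABA replicates 1 or 2 (adjusted p = 0.0481 and 0.0297). Leaving out 0N+ABA replicate 3 gave an adjusted p of 0.129, and leaving out 2N+ABA replicates 1, 2 or 3 gave 0.154, 0.127 and 0.0531, so in these the call was lost.

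The same-named genes on 7A and 7D stood higher with nitrate as well. TraesCS7A02G418100 had 0.918, 0.687 and 0.766 CPM in 0N+ABA and 2.29, 1.46 and 1.52 CPM in 2N+ABA (log2 fold change 1.15 with an SE of 0.283, adjusted p = 0.0838). TraesCS7D02G411100 had 2.18, 1.55 and 1.18 CPM and 4.12, 2.62 and 2.48 CPM (log2 fold change 0.91 with an SE of 0.294, adjusted p = 0.171). The groups did not overlap in either, and neither passed the test. The 3 genes together had 7.69, 5.38 and 4.60 CPM without nitrate and 14.9, 13.97 and 10.3 CPM with it. Chromosome group 7 held 3 further SAUR50 genes without enough reads to test, TraesCS7A02G077000 and TraesCS7D02G072600 with means of 0.0850 and 0.523 TPM, and TraesCS7A02G315400 with no count. Not every SAUR50 gene followed. The most abundant of the SAUR genes, TraesCS5D02G222500 at 19.8 TPM, had 12.97, 11.6 and 8.08 CPM without nitrate and 12.8, 12.5 and 12.3 CPM with it, with overlapping groups (log2 fold change 0.20 with an SE of 0.168, adjusted p = 0.61), and its log2 fold change ran from 0.031 to 0.35 with 1 library left out.

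Among the remaining SAUR genes, 4 tested SAUR72 genes were all above 0, between 0.35 and 0.78 on the log2 scale. They lie on chromosome group 7, as does the 1 tested SAUR71 gene at 0.99, and SAUR71 and SAUR72 are close relatives in Arabidopsis. The most abundant of these was TraesCS7B02G370400 at 13.4 TPM, with 1.61, 1.66 and 2.95 CPM without nitrate and 2.46, 2.93 and 2.54 CPM with it, and overlapping groups (adjusted p = 0.574). For SAUR77 on chromosome group 5, the 5B copy (TraesCS5B02G054900) had 0.516, 0.401 and 0.236 CPM and 0.858, 0.610 and 0.958 CPM (log2 fold change 1.06 with an SE of 0.373, adjusted p = 0.204). These are few reads per library, and none of the SAUR71, SAUR72, SAUR77, SAUR32 or SAUR36 genes passed by edgeR, DESeq2 or limma-voom. Of all 21 tested SAUR genes, 8 were above with no overlap of the groups and 0 below, against 11.3% and 10.8% of all tested genes. At an unadjusted p under 0.05 there were 7 higher and 1 lower, 38.1% of those tested against 16.4% of all tested genes. The one lower was TraesCS2A02G386400, matched to SAUR36, with 0.975, 2.00 and 0.707 CPM in 0N+ABA and 0.343, 0.732 and 0.564 CPM in 2N+ABA (adjusted p = 0.261).

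SAUR36 was the largest group by number. It took 53 of the 109 SAUR genes, of which 3 could be tested and 18 had no count. The 40 on chromosome group 5 gave 0 tested genes, and 17 of these 40 had no count. By contrast 6 of 14 SAUR32 genes, all on chromosome group 6, were tested, and the 14 together summed to 23.5 to 42.6 TPM. SAUR32 showed no separation, with log2 fold changes between -0.34 and 0.58. SAUR genes are short and often lie in tandem, so TPM depends strongly on the length used and the division of reads among near-identical copies is uncertain. The latter holds for the A, B and D copies of all families.

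The share of each chromosome's copy in a set shows the same divergence in another way. Among 12 sets with 1 tested copy on each of the A, B and D chromosomes of a group, the share of the GH3.2 level held by the 3B copy was 50.5% to 60.2% in 0N+ABA and 43.0% to 43.9% in 2N+ABA, and that of the 3D copy 22.3% to 27.5% and 34.3% to 38.8%. Shares of some copies in other sets did not overlap between the groups either. For component 9 the 3A copy held 45.5% to 49.2% in 0N+ABA and 51.2% to 54.8% in 2N+ABA. Its 3B copy held 18.9% to 21.6% and 12.9% to 15.6%. The 3B copy of GH3.1, the 5B copy of SAUR77 and the 1D gene of auxin transporter-like protein 2 had higher shares in every nitrate library. The last of these sets may join genes that do not correspond. An untested gene on 1B (TraesCS1B02G287300) bears the same name as the 1B gene used. For auxin transporter-like protein 1 the shares overlapped in all 3 copies, with 43.3% to 48.5% from 3A over all libraries. These sets were singled out after their values were seen, and the shares have no test.

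With all 6 libraries, other genes of the auxin pathway gave few calls as well (by edgeR, 1.67% of all tested genes were higher and 0.579% lower). Of 59 tested Aux/IAA repressors 0 rose and 1 fell, of 60 auxin response factors 0 rose and 1 fell, and of 17 TIR1-type receptors 1 rose and 0 fell. At an unadjusted p under 0.05 the repressors had 0 higher and 7 lower, the response factors 1 and 14, and the receptors 2 and 0. Over all tested genes 8.62% were higher and 7.77% lower by that rule. DESeq2 and limma-voom gave the same counts of calls as edgeR in all 3 lists. Without 0N+ABA replicate 2, edgeR called 6 response factors lower, and the counts for repressors and receptors were 0 and 1 higher and 1 and 0 lower. In that comparison 5.19% of all tested genes were higher and 3.19% lower. The repressor that fell was TraesCS3D02G110200, matched to IAA2 (log2 fold change -0.84, adjusted p = 0.0183), which no longer passed without each single library other than 0N+ABA replicate 2 (adjusted p = 0.0521 to 0.106). The response factor was TraesCS7A02G160800, matched to ARF16 (log2 fold change -0.76, adjusted p = 0.0212), whose call was lost without 0N+ABA replicate 3 and without 2N+ABA replicates 1, 2 or 3 (adjusted p = 0.0796, 0.108, 0.0803 and 0.0942). None of 25 synthesis genes, 32 genes for breakdown or release of conjugates and 22 PIN-acting kinases passed by edgeR, DESeq2 or limma-voom (1, 1 and 0 higher and 1, 1 and 4 lower at an unadjusted p under 0.05). Without 0N+ABA replicate 2, 0, 1 and 1 of them fell. Median log2 fold changes of these lists ran from -0.15 for the response factors to 0.01 for the receptors. The receptor-like gene TraesCS4D02G301800 had 4.02, 4.41 and 4.01 CPM in 0N+ABA and 10.01, 9.03 and 12.7 CPM in 2N+ABA (log2 fold change 1.35 with an SE of 0.160, adjusted p = 0.00540), and its call held without each library in turn (adjusted p = 0.00371 to 0.0379).

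Of the 26 tested PIN and AUX1/LAX carriers 0 passed by edgeR with all 6 libraries. Other lists named for carriers held some calls. WAT1-related genes are a family named for an Arabidopsis protein that moves auxin out of the vacuole. Of 81 tested, 51 were below 0, with a median log2 fold change of -0.27. At an unadjusted p under 0.05, 8 were higher and 31 lower, where 8.62% and 7.77% of all tested genes were. EdgeR called 4 higher and 4 lower (1.67% and 0.579% of all tested genes). DESeq2 called 4 and 10 (2.65% and 1.28%), and limma-voom 3 and 4 (1.57% and 0.486%). Without 0N+ABA replicate 2, edgeR called 9 higher and 19 lower (5.19% and 3.19%). The 3 genes for WAT1-related protein At4g28040 on 5A, 5B and 5D rose by 0.95, 0.94 and 0.81 on the log2 scale (adjusted p = 0.00687, 0.0106 and 0.00863). The 5B copy did not pass without 0N+ABA replicate 1 (adjusted p = 0.0538), 2N+ABA replicate 1 (0.0727) or 2N+ABA replicate 3 (0.0571). The largest of the edgeR falls was that of TraesCS6D02G308700, matched to At1g44800, from 5.09 ± 0.0765 to 1.10 ± 0.171 CPM (SD, n = 3; log2 fold change -2.20, adjusted p = 0.000804). Of 37 tested ABCB and PIN-LIKES genes 1 rose and 2 fell by edgeR and DESeq2, limma-voom called 0, and edgeR without 0N+ABA replicate 2 called 3 higher and 3 lower. Of 11 tested genes named auxin-induced or auxin-repressed, some of which are SAUR proteins under older soybean names, 9 were above 0 (median log2 fold change 0.66). At an unadjusted p under 0.05, 5 were higher and 0 lower (8.62% and 7.77% of all tested genes). EdgeR, DESeq2 and limma-voom each called 1 higher and 0 lower. Without 0N+ABA replicate 2, edgeR called 2 higher and 0 lower (5.19% and 3.19%). The edgeR call with all libraries was TraesCS6A02G115600 (X10A), which rose from 2.14 ± 0.123 to 3.80 ± 0.223 CPM (adjusted p = 0.0408). This call was lost without each single library other than 0N+ABA replicate 2. The lists rest on protein names alone.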

How the data were processed

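RNA-seq of wheat roots gave 6 libraries, 3 of 0N+ABA and 3 of 2N+ABA, grouped by their titles. Messenger RNA was enriched with oligo(dT) beads, per the labels' protocols. These record neither strand marking nor molecular identifiers, so any error from amplification stays in the counts. The submitters' processing notes name HISAT and Bowtie2 without a role. Which counter, genome build and gene models were used is not given in the sources used here. Per the file headers, the authors deposited TPM values and estimated counts per gene, the latter not normalized. Another 22 value columns were not used. The reference table held 0 of the deposited gene IDs, so chromosomes come from the gene ID and no coordinates or sequences are given.

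Estimated counts were rounded, and edgeR 4.0.16 was run in R 4.3.3 (filterByExpr, TMM, glmQLFit and glmQLFTest, no covariate). The filter kept 53862 genes with 99.61% of the counts, and p was adjusted by Benjamini-Hochberg over all of them. SEs come from the F statistic. Alternatives were DESeq2 1.42.0, limma-voom (limma 3.58.1), limma on log2(TPM + 0.1), other scalings and filters, a replicate block, and each library left out. The test was checked on simulated counts. Members and lists were chosen with earlier results of these data known. Named genes were each member past the test with its same-named copies, and per family the 4 with the smallest p and the 3 with the highest TPM. Remaining copies of the sets shown, the SAUR36 gene and genes of other lists were added after their values were seen. Some efflux carrier genes that the rule picks are not reported here.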

Additional observations from a re-analysis of the deposited data

How the results depend on the processing

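The count of genes called in the whole table was 1210. It was 2193 by DESeq2, 723 with the replicate number as a block, and between 283 and 4607 when 1 library was left out. The rise among the auxin genes was 1 call, and 0 by limma on log2(TPM + 0.1). It ranged from 0 to 1 with 1 library left out. Falls numbered 0, with 1 by DESeq2 and 0 to 7 with 1 library left out, the 7 being without 0N+ABA replicate 2. The other scalings, both filters and limma-voom left all 3 counts within 1.5 times. Same-numbered libraries did not deviate together (correlations of 0.0757, -0.229 and -0.217, and 0 of 6 libraries correlated best with their own number), so the numbers were not taken as pairs, and the block left the member calls at 1 and 0. Among the named genes, TraesCS2D02G191800 (GH3.8, -0.18) ranged from -0.28 to 0.035 with 1 library left out. The SAUR50 gene TraesCS7B02G318200 kept its direction throughout, between 1.08 and 1.50 with 1 library left out. Of 109 SAUR genes, 88 had too few reads for a test, 20 of them none. The cause of these differences was not tested.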
